A study of Equus caballus with 10 samples.

Results

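The miRNAs of the miR-17/92 cluster and its paralogues were followed in RNA pulled down from equine joint cells. They were taken by exact name from the raw count table, which had a row for each of the 10 names looked for, among 239 miRNAs in all. By shared seed, the bases near the 5′ end that pair with target mRNAs, they form 4 families. The miR-17 seed family holds eca-miR-17, eca-miR-20a, eca-miR-93, eca-miR-106a and eca-miR-106b, the miR-18 seed family eca-miR-18a, the miR-19 seed family eca-miR-19a and eca-miR-19b, and the miR-25 seed family eca-miR-25 and eca-miR-92a. In human and mouse, miR-17, miR-18a, miR-19a, miR-20a, miR-19b and miR-92a are cut from a shared primary transcript that MYC switches on, while miR-106b, miR-93 and miR-25 come from an intron of a replication gene and miR-106a from a cluster on the X chromosome. They are known for driving cell cycle entry and survival. Human deletions of the miR-17/92 host gene cause a syndrome with skeletal defects.

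EV-recipient synoviocytes came from 4 horses, were cultured at 25% oxygen and received extracellular vesicles (EVs) pooled from the chondrocytes of 8 horses. EV-recipient chondrocytes came from 5 horses, were cultured at 5% oxygen and received EVs pooled from the synoviocytes of 9 horses. Donor cells of both groups had been grown with 5-ethynyl uridine (5-EU), a uridine analogue that enters new RNA, for 48 h. Medium was then collected, and a further 48 h with 5-EU gave another batch. Recipients were exposed to EVs for 24 h before labelled RNA was pulled down and sequenced as small RNA. A remaining synoviocyte library, named as the negative control in the group row of the deposited table and drawn as such in the study's figures, had received EVs of donor cells kept without 5-EU. Its sample title does not say so, and it entered no comparison. All cells were primary cells in monolayer from metacarpophalangeal joints, with donors at passage 1 and recipients at passage 2. Each library was a separate recipient horse, but the EVs were pooled, so that the p-values below measure the spread between recipients and not between EV preparations. Recipient cell type, EV source, oxygen and the number of EVs per volume of medium, which the study states was higher for the synoviocytes, changed together and cannot be told apart. Nor do the counts separate RNA brought by EVs from RNA of the recipient cells. The control, whose EV donors had no 5-EU, also gave miRNA counts.

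Libraries held 17151 to 436475 miRNA counts in EV-recipient synoviocytes, 4891 to 444408 in EV-recipient chondrocytes and 20330 in the control. Levels are in RPM, reads scaled to a miRNA total of 1000000 per library, so each is relative to the other miRNAs of its library, and fewer cells of a type and less RNA per cell cannot be told apart. A count of 3, taken as the floor of detection, was worth 6.87 to 175 RPM in EV-recipient synoviocytes and 6.75 to 613 RPM in EV-recipient chondrocytes. Intervals and floors cover counting error only. The cartilage marker miR-140, both arms summed, stood at 0 to 182 RPM in EV-recipient synoviocytes and at 204 to 3805 RPM in EV-recipient chondrocytes, where the lowest value was a single count in the shallowest library. The control, a synoviocyte library by its label, held 787 RPM from 16 counts, above each labelled synoviocyte value and within the range of the EV-recipient chondrocytes. Chondrocyte replicate 1 and synoviocyte replicate 4 were the shallowest libraries of their groups. Per 1000 counts of the spike-in standards added before library preparation, they held 13.4 and 63.4 miRNA counts. The control held 78.6 and the other labelled libraries 239 to 2493. Both shallow libraries thus gave less miRNA per spike-in than the library without 5-EU, which limits how far their values can be read as labelled RNA.

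The 10 miRNAs took up a similar part of both recipient types, and 4 of them, eca-miR-92a, eca-miR-25, eca-miR-93 and eca-miR-19b, carried nearly all of it. Together the 10 made up 5.02 ± 0.86% of miRNA counts in EV-recipient synoviocytes (SD, n = 4) and 5.45 ± 0.97% in EV-recipient chondrocytes (SD, n = 5), with overlapping ranges of 4.20 to 6.19% and 4.40 to 6.44%. In the control they made up 4.19%. The 4 abundant miRNAs were counted in all 9 labelled libraries, as were 18.4% of all miRNAs. None of the other 6 was. By mean RPM among the 239 miRNAs, eca-miR-92a ranked 11 in both groups, eca-miR-25 ranked 17 in EV-recipient synoviocytes and 21 in EV-recipient chondrocytes, eca-miR-93 ranked 18 and 17, and eca-miR-19b ranked 40 and 34.

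The miR-25 seed family was the most abundant of the 4. eca-miR-92a, whose known targets in human cells include the pro-apoptotic gene BIM, was at 17272, 15056, 15526 and 29911 RPM in EV-recipient synoviocyte replicates 1 to 4. It was at 29442, 15803, 12724, 20406 and 21073 RPM in EV-recipient chondrocyte replicates 1 to 5. The highest level of each group was in its shallowest library, and the ranges of the groups coincided almost entirely. Means were 19441 ± 7045 RPM (SD, n = 4) in EV-recipient synoviocytes and 19889.6 ± 6343 RPM (SD, n = 5) in EV-recipient chondrocytes. The control, at 16331 RPM, lay within both ranges.

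eca-miR-25 shares the seed of eca-miR-92a and comes, in human and mouse, from the cluster of miR-106b. It was at 12429, 15243, 11714 and 14401 RPM in EV-recipient synoviocytes. It was at 7360.5, 11415, 12220.0, 17509 and 17534 RPM in EV-recipient chondrocytes, where replicate 1 was the lowest. The EV-recipient synoviocyte values lay inside the range of the EV-recipient chondrocytes, with means of 13447 ± 1651 RPM (SD, n = 4) and 13208 ± 4347 RPM (SD, n = 5). The control held 10379 RPM. The coefficient of variation of eca-miR-25 was 12.3% in EV-recipient synoviocytes and 32.9% in EV-recipient chondrocytes, beside medians of 29.2% and 38.1% over the 49 miRNAs abundant enough to be tested. For the lowest library, which rested on 36 counts, the 95% Wilson interval was 5321.5 to 10173 RPM, which lies below each of the other 8 labelled values.

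**Figure D1:**
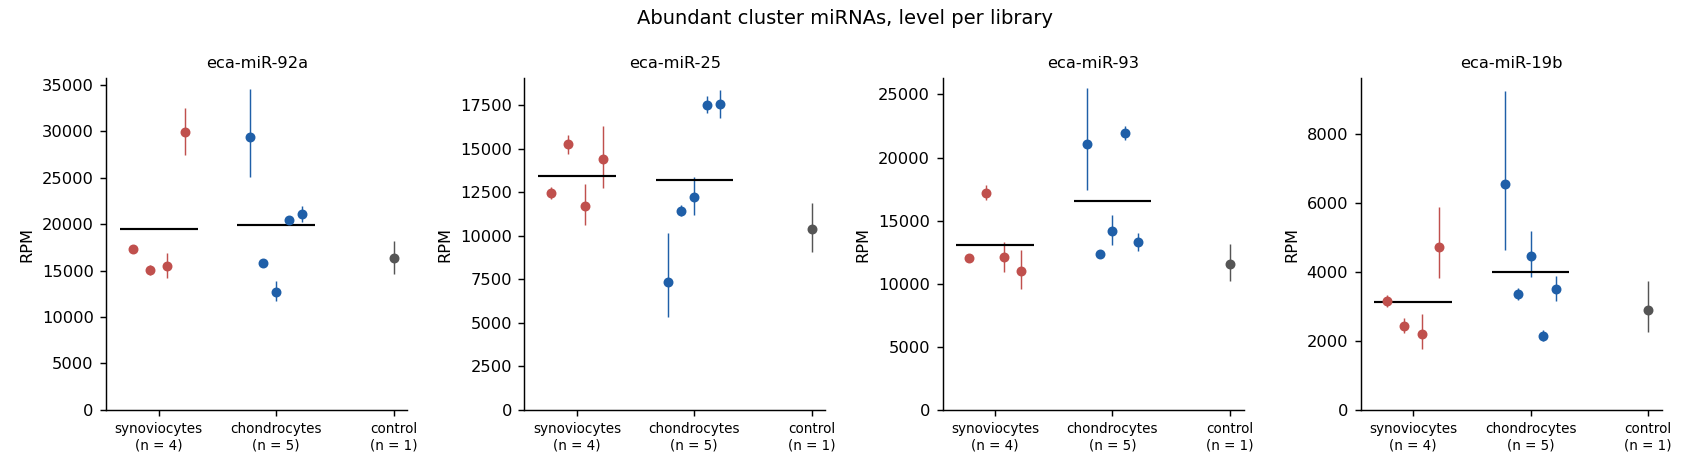
RPM (vertical axis) of eca-miR-92a, eca-miR-25, eca-miR-93 and eca-miR-19b in each library of EV-recipient synoviocytes, EV-recipient chondrocytes and the control. Points are libraries in replicate order, thin bars are 95% Wilson intervals for counting error and horizontal lines are group means; the groups overlap in all 4, and eca-miR-92a reaches 29911 RPM in synoviocyte replicate 4 and 29442 RPM in chondrocyte replicate 1.

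eca-miR-93, of the miR-106b cluster, was the only abundant bearer of the miR-17 seed, whose best known target in human cells is the cell cycle inhibitor CDKN1A. It was at 12001, 17204, 12086 and 11019.8 RPM in EV-recipient synoviocytes, and at 21059, 12336, 14210.5, 21923 and 13315 RPM in EV-recipient chondrocytes. Chondrocyte replicates 1 and 4 were the highest of the 9, and the remaining values of both groups overlapped. Means were 13078 ± 2793 RPM (SD, n = 4) in EV-recipient synoviocytes and 16569 ± 4552 RPM (SD, n = 5) in EV-recipient chondrocytes. The control held 11559 RPM, within the EV-recipient synoviocyte range and under each EV-recipient chondrocyte value.

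The miR-19 seed family is the part of the cluster best known for promoting cell survival. Its main member here, eca-miR-19b, was at 3141, 2418, 2200.3 and 4723 RPM in EV-recipient synoviocytes and at 6543, 3353, 4459.7, 2142 and 3489 RPM in EV-recipient chondrocytes. As with eca-miR-92a, the highest level of each group was in its shallowest library. Group means were 3121 ± 1141 RPM (SD, n = 4) in EV-recipient synoviocytes and 3997 ± 1644 RPM (SD, n = 5) in EV-recipient chondrocytes. The control held 2902 RPM.

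eca-miR-19a, its near-identical relative, was much scarcer, at 909.6, 468, 309.9 and 1866 RPM in EV-recipient synoviocytes. In EV-recipient chondrocytes it was at 0, 666, 503.9, 211 and 740.3 RPM, and in the control at 246 RPM. The zero was in the library whose floor is 613 RPM, so that levels like those of chondrocyte replicates 3 and 4 were not detectable there. The mean was 2.09 times as high in EV-recipient synoviocytes (888 ± 699 RPM, SD, n = 4) as in EV-recipient chondrocytes (424 ± 312 RPM, SD, n = 5), a difference within the spread (two-sided exact permutation p = 0.230, adjusted p over all 239 miRNAs = 0.893). The difference of 464 RPM between these means rested largely on 1 library, since it was 138 RPM without synoviocyte replicate 4 and 32.3 RPM without the shallowest library of each group. Over the 9 labelled libraries eca-miR-19a had 978 counts and eca-miR-19b 4641. Per library eca-miR-19a made up 12.3 to 28.3% of the counts of the pair in EV-recipient synoviocytes and 0 to 17.5% in EV-recipient chondrocytes. Reads of such close relatives can be assigned to either when 1 mismatch is allowed, so the division between eca-miR-19a and eca-miR-19b is uncertain. It may also be uncertain among eca-miR-17, eca-miR-20a, eca-miR-106a and eca-miR-106b, whose sequences were not compared here.

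The rest of the miR-17 seed family was sparse in every library. eca-miR-17, the first miRNA of its cluster, had 71, 33, 2 and 0 counts in EV-recipient synoviocytes and 0, 59, 5, 30 and 25 counts in EV-recipient chondrocytes, and none in the control. This corresponded to 99.1 ± 82.7 RPM (SD, n = 4) in EV-recipient synoviocytes and 124 ± 90.3 RPM (SD, n = 5) in EV-recipient chondrocytes, with a two-sided exact permutation p of 0.683. Its zeros fell in the shallowest library of each group and in the control, where the floors of 175, 613 and 148 RPM lie within or above the 62.0 to 254 RPM seen elsewhere. eca-miR-106a had 71, 28, 2 and 0 counts in EV-recipient synoviocytes and 0, 44, 0, 24 and 9 counts in EV-recipient chondrocytes (exact permutation test, two-sided, p = 0.397). Counts of eca-miR-106a and eca-miR-17 were equal in synoviocyte replicates 1 and 3 and both 0 in synoviocyte replicate 4. In synoviocyte replicate 2 and in chondrocyte replicates 2 to 5 those of eca-miR-106a were the lower. Because the division of reads between the pair may be uncertain, equal counts do not show that they vary together.

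eca-miR-20a was counted in 1 of 4 EV-recipient synoviocyte libraries and in 4 of 5 EV-recipient chondrocyte libraries. It had 27, 0, 0 and 0 counts in EV-recipient synoviocytes, 0, 61, 15, 9 and 31 counts in EV-recipient chondrocytes, and 10 counts in the control. In RPM these were 61.9 and otherwise 0 in EV-recipient synoviocytes, against 0, 137, 378, 31.6 and 314 in EV-recipient chondrocytes. The control held 492 RPM. The zero of synoviocyte replicate 2 stood against a floor of 15.6 RPM, under each of the other chondrocyte values. The groups overlapped, and the difference in mean RPM did not pass the test (means of 15.5 ± 30.9 RPM in EV-recipient synoviocytes and 172 ± 168 RPM in EV-recipient chondrocytes; two-sided exact permutation p = 0.127, adjusted p over all 239 miRNAs = 0.867). At 492 RPM, with a 95% Wilson interval of 267 to 905 RPM, the control lay above each of the 4 labelled synoviocyte values and above the highest chondrocyte value of 378 RPM, although its interval reached below that level.

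eca-miR-106b, which is cut from the same transcript as miR-93 and miR-25 in human and mouse, had only 32 counts over the 9 labelled libraries. They were 13 in synoviocyte replicate 1 and 10, 3 and 6 in chondrocyte replicates 2, 4 and 5 (exact permutation test, two-sided, p = 0.563). eca-miR-18a, known in mouse for acting on connective tissue growth factor, had 20 and 2 counts in synoviocyte replicates 1 and 2 and 21 counts in chondrocyte replicate 4. It had no count in chondrocyte replicate 2, the deepest library, whose floor was 6.75 RPM, while chondrocyte replicate 4 held 73.7 RPM. The exact permutation test gave p = 1 for eca-miR-18a, and the control had no count of eca-miR-106b or eca-miR-18a.

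**Figure D2:**
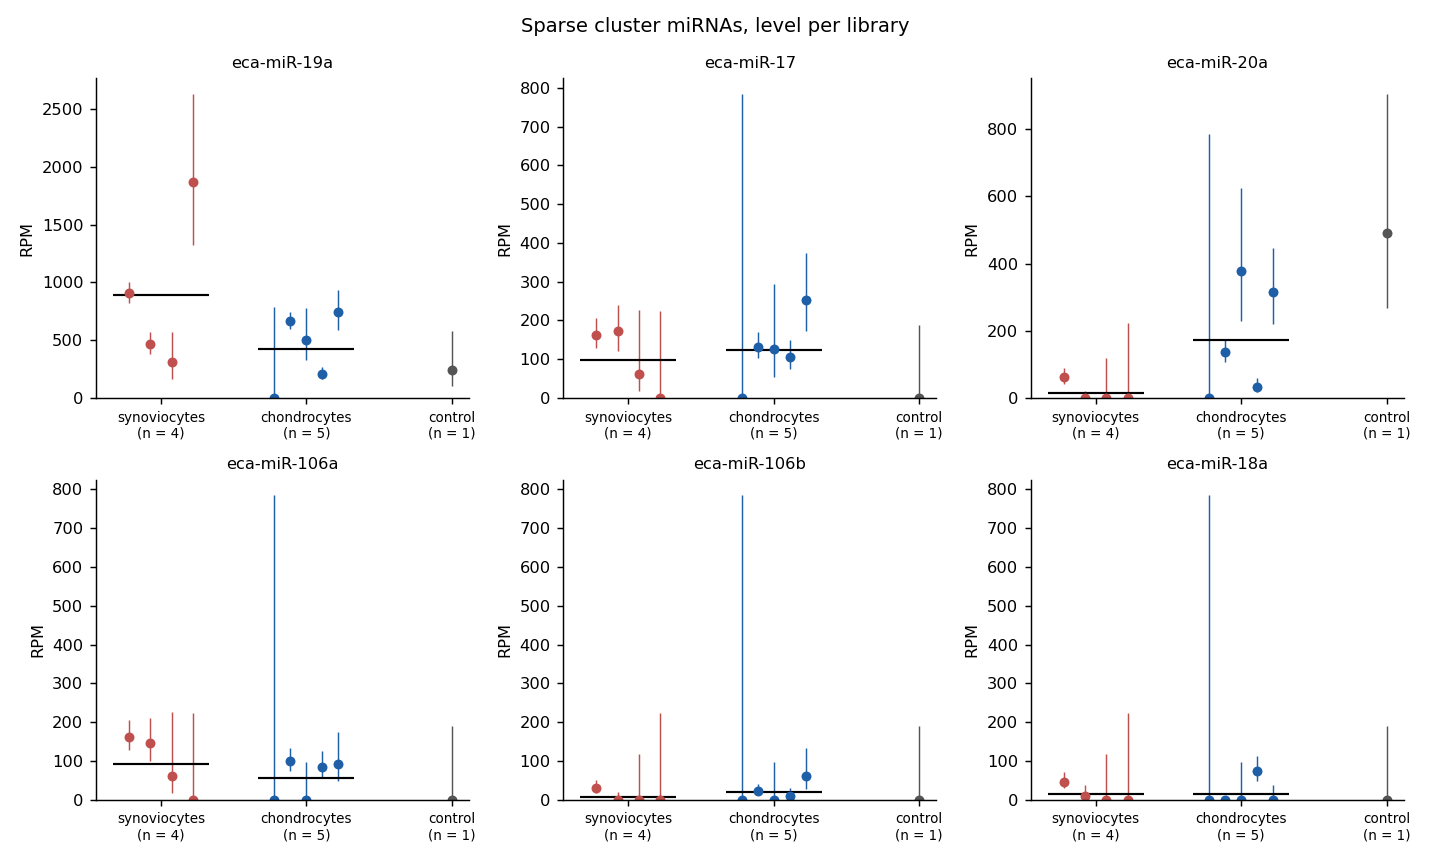
RPM (vertical axis, its own scale in each panel) of eca-miR-19a, eca-miR-17, eca-miR-20a, eca-miR-106a, eca-miR-106b and eca-miR-18a in each library of EV-recipient synoviocytes, EV-recipient chondrocytes and the control. Points are libraries in replicate order, thin bars are 95% Wilson intervals and horizontal lines are group means; the long bar from 0 is chondrocyte replicate 1, where 3 counts are worth 613 RPM.

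Whether the clusters differed between the recipient types was tested with edgeR's quasi-likelihood test on the counts of the 9 labelled libraries, adjusted by Benjamini-Hochberg over all miRNAs tested. A miRNA had to reach 2045 RPM, which is 10 counts in the shallowest library, in at least 2 libraries. This left 49 of 239 miRNAs (20.5%) and 4 of the 10. The 6 sparse ones reached that minimum in 0 libraries. In edgeR 0 of the 4 passed at an unadjusted p under 0.05, where 18.4% of the 49 did, or at an adjusted p under 0.05, where 8.16% did (2.04% higher and 6.12% lower in EV-recipient synoviocytes), and DESeq2 and limma on log2(RPM + 1) or log2(RPM + 10) called 0 of the 4 as well. Groups did not overlap in RPM for 16.3% of the 49 and for none of the 4.

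The fold changes of the 4 were small. For EV-recipient synoviocytes over EV-recipient chondrocytes the log2 fold change was 0.15 for eca-miR-25 (standard error 0.29, 95% interval -0.48 to 0.78, adjusted p = 0.760). It was 0.16 for eca-miR-92a (standard error 0.31, 95% interval -0.51 to 0.82, adjusted p = 0.760), and it was -0.03 when the shallowest library of each group was left out. For eca-miR-93 it was -0.18 (standard error 0.23, 95% interval -0.68 to 0.33, adjusted p = 0.648), and it was -0.061 without chondrocyte replicate 1 and -0.074 without chondrocyte replicate 4. For eca-miR-19b it was -0.15 (standard error 0.40, 95% interval -1.02 to 0.72, adjusted p = 0.858). In linear terms the intervals ran from 0.715 to 1.72 times for eca-miR-25, 0.704 to 1.77 times for eca-miR-92a, 0.622 to 1.26 times for eca-miR-93 and 0.495 to 1.65 times for eca-miR-19b. The signs should not be read as directions. Those of eca-miR-25, eca-miR-92a and eca-miR-19b turned with the scaling or with a single library. That of eca-miR-93 stayed negative in every alternative fit, but its interval included 0. The median size of the log2 fold change was 0.15 over the 4 and 0.42 over all 49. Ordered from the smallest, the 4 held places 9, 10, 11 and 13 of 49.

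**Figure D3:**
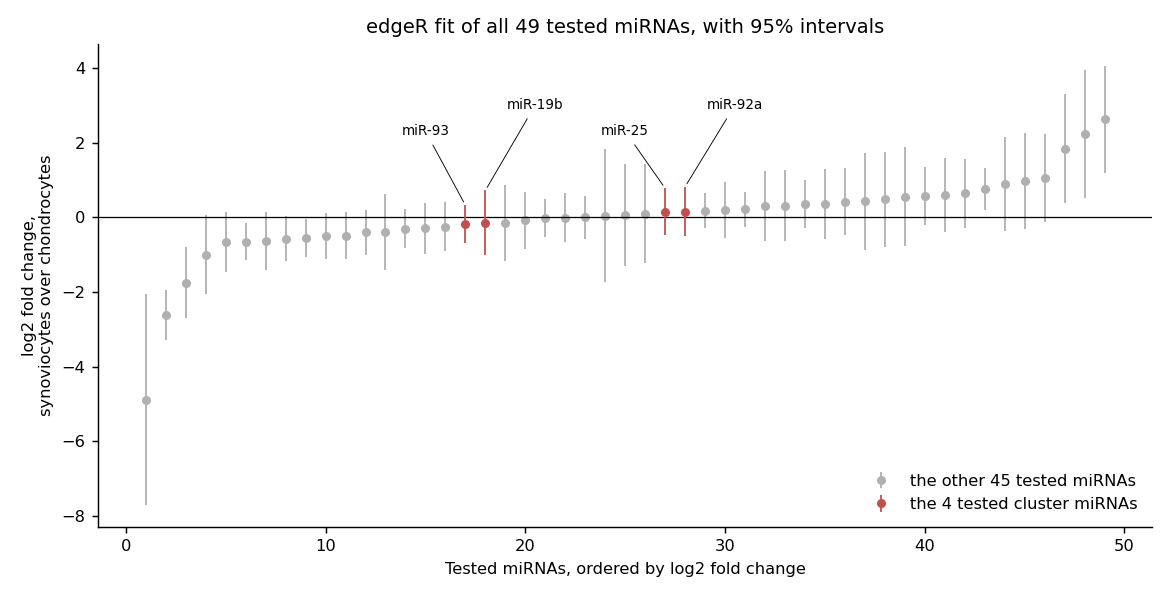
The log2 fold change of EV-recipient synoviocytes over EV-recipient chondrocytes (vertical axis) for the 49 tested miRNAs in ascending order, from edgeR's quasi-likelihood fit, with 95% intervals as bars. The 4 cluster miRNAs (red) lie between -0.18 and 0.16 with intervals that include 0.

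The 6 sparse miRNAs could be compared only with less stringent filters. Over all 239 miRNAs the exact permutation test of RPM gave p from 0.127 to 1 for the 10. None was under 0.05, where 7.95% of all miRNAs were, and after adjustment 0 of 239 were. The smallest p that this test can give is 0.00794, so after adjustment over 239 miRNAs a few strong differences could not pass. The adjusted p of this test, here and for single miRNAs, thus cannot show that levels were alike. With no abundance filter, edgeR gave the 6 adjusted p from 0.288 to 0.968. The lowest was that of eca-miR-20a, with a log2 fold change of -2.83 and a 95% interval of -6.14 to 0.48. For eca-miR-17 the interval was -3.14 to 2.66 and for eca-miR-106b -4.80 to 3.10, so that these counts left differences of several fold in either direction within the intervals.

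Seed families as a whole kept the same order in every library, from the miR-25 seed down through the miR-17 and miR-19 seeds to the miR-18 seed, which was lowest or absent. The miR-25 seed family summed to 32888 ± 7730.3 RPM in EV-recipient synoviocytes (SD, n = 4) and 33097 ± 6487 RPM in EV-recipient chondrocytes (SD, n = 5). It made up 59.7 to 71.6% and 55.9 to 67.9% of the counts of the 10 miRNAs. The miR-17 seed family summed to 13292 ± 2886 RPM and 16938 ± 4339 RPM, or 17.8 to 34.5% and 24.7 to 35.4% of the counts. The miR-19 seed family summed to 4009 ± 1841 RPM and 4421 ± 1522.5 RPM, or 5.69 to 10.6% and 3.76 to 11.1%. All ranges overlapped between the groups. In the control the miR-25, miR-17 and miR-19 seed families made up 63.7, 28.8 and 7.51%, within the range of both groups.

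**Figure D4:**
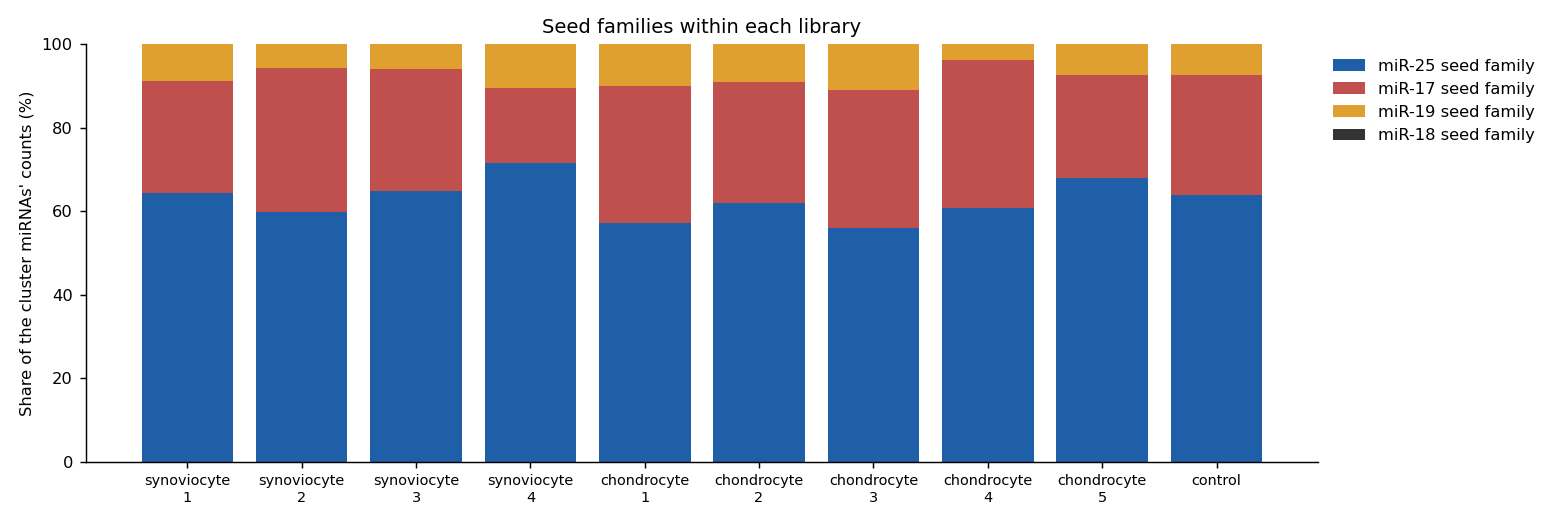
Share of the counts of the 10 cluster miRNAs (vertical axis, %) that fell to each seed family in each library, with the 4 EV-recipient synoviocyte libraries, the 5 EV-recipient chondrocyte libraries and the control from left to right. The miR-25 seed family makes up between 55.9 and 71.6% in the labelled libraries and the miR-18 seed family is barely visible.

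Within families and clusters the counts were far from equal. These are ratios of counts between different miRNAs, and whether each was captured and amplified equally was not tested. Without eca-miR-93, the other 4 bearers of the miR-17 seed summed to 215 ± 188 RPM (SD, n = 4) in the EV-recipient synoviocytes and 369 ± 272 RPM (SD, n = 5) in the EV-recipient chondrocytes. Over the 9 labelled libraries eca-miR-93 had 22830 counts and these 4 had 578. eca-miR-93 and eca-miR-25, which share a transcript in human and mouse, had similar counts in 8 of the 9 labelled libraries, with eca-miR-93 at 43.3 to 53.0% of the counts of the pair in EV-recipient synoviocytes and 43.2 to 55.6% in EV-recipient chondrocyte replicates 2 to 5. Chondrocyte replicate 1 was the exception, with 103 counts of eca-miR-93 and 36 of eca-miR-25 (74.1%, 95% Wilson interval 66.2 to 80.7%). Their transcript partner eca-miR-106b was counted 713 times less often than eca-miR-93. From the other transcript, eca-miR-92a had 120 times the counts of eca-miR-17 and 5.82 times those of eca-miR-19b. In human and mouse miR-92a and miR-19b are also encoded in the cluster of miR-106a, and the counts do not separate the copies.

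The balance between eca-miR-92a and eca-miR-25 varied from library to library, and the groups overlapped. eca-miR-92a made up 58.2, 49.7, 57.0 and 67.5% of the counts of the pair in EV-recipient synoviocytes, and 80.0, 58.1, 51.0, 53.8 and 54.6% in EV-recipient chondrocytes. The highest value of each group was again in its shallowest library. The 95% Wilson intervals of these libraries were 64.1 to 70.7% for synoviocyte replicate 4 and 73.6 to 85.2% for chondrocyte replicate 1. The other 7 labelled libraries lay between 49.7 and 58.2%. The control, the next shallowest library after them, held 61.1% (57.0 to 65.1%).

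Because these clusters are also abundant in blood cells, the markers of blood were read in the same libraries. Of 4 erythroid markers 3 had a row, and they summed to 27.5, 1165, 1890.4 and 16967 RPM in EV-recipient synoviocyte replicates 1 to 4. In EV-recipient chondrocytes they summed to 1022, 54.0, 328, 45.7 and 497 RPM, and in the control to 1722 RPM. Synoviocyte replicate 4, with 177 counts of eca-miR-451, 49 of eca-miR-144 and 65 of eca-miR-486-5p, thus stood apart, and it was also the library with the highest eca-miR-92a and eca-miR-19a. Chondrocyte replicate 1 had a nearly equal level of eca-miR-92a and 5 counts of eca-miR-451, with eca-miR-144 and eca-miR-486-5p at 0. Its floor was 613 RPM, and its 1022 RPM was the highest erythroid sum among the EV-recipient chondrocytes. Of 5 leukocyte markers 4 had a row, and they summed to 58.3 to 527 RPM in EV-recipient synoviocytes, 126 to 4703 RPM in EV-recipient chondrocytes, with no count in the control. The highest value, from 23 counts (13 of eca-miR-223 and 10 of eca-miR-155), was in chondrocyte replicate 1. Most leukocyte marker counts of the other labelled libraries were of eca-miR-155, as with 113 of 125 in synoviocyte replicate 1. The exception was synoviocyte replicate 4, whose 1 count was of eca-miR-142-3p. The part of blood-cell RNA and of depth in the levels of eca-miR-92a was not tested.

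**Figure D5:**
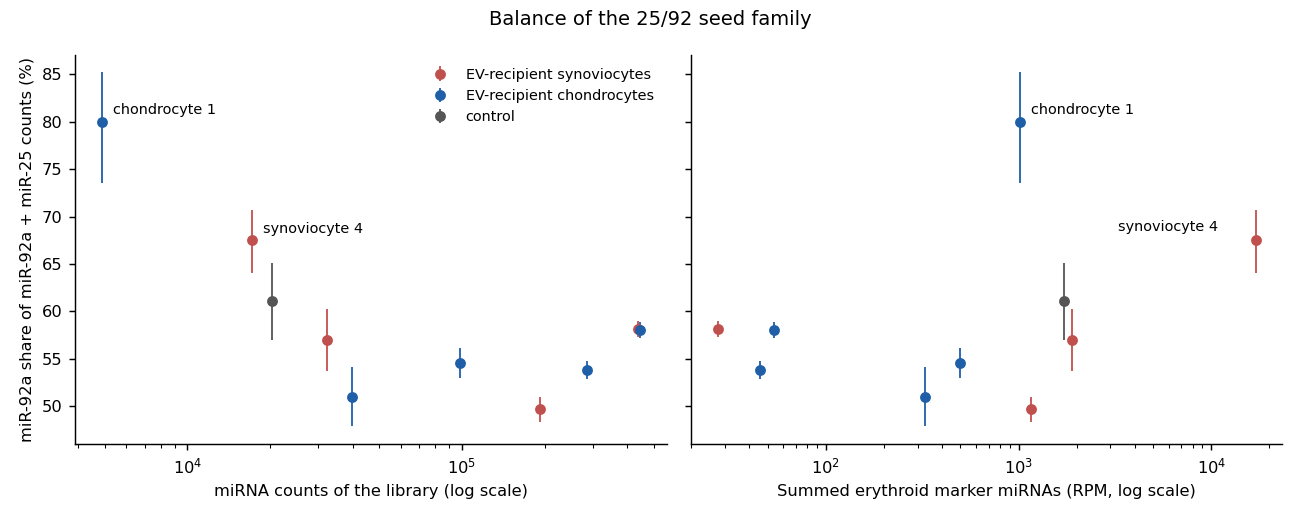
The share of eca-miR-92a in the summed counts of eca-miR-92a and eca-miR-25 (vertical axis, %) against the miRNA counts of the library (left) and against the summed RPM of the erythroid markers (right), both on log scales. Points are libraries coloured by group, with 95% Wilson intervals. Chondrocyte replicate 1 at 80.0% and synoviocyte replicate 4 at 67.5% lie above the other labelled libraries, with erythroid sums of 1022 RPM (5 counts) and 16967 RPM. Synoviocyte replicates 2 and 3, at 49.7 and 57.0%, have sums of 1165 and 1890 RPM, above that of chondrocyte replicate 1.

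The abundant cluster miRNAs had low rank correlations with each other. Over the 9 labelled libraries Spearman's rho of RPM was 0.13 between eca-miR-25 and eca-miR-92a, 0.10 between eca-miR-25 and eca-miR-93, and 0.43 between eca-miR-19b and eca-miR-92a. It was -0.13 between eca-miR-93 and eca-miR-92a and -0.35 between eca-miR-25 and eca-miR-19b. Among the 49 tested miRNAs, the pattern most like that of eca-miR-92a was that of eca-miR-660 (rho = 0.72), followed by eca-miR-19b (rho = 0.43) and eca-miR-199a-5p (rho = 0.40). Those nearest to eca-miR-93 were eca-miR-199a-3p (rho = 0.75), eca-miR-199b-3p (rho = 0.75) and eca-miR-22 (rho = 0.73). eca-miR-25 came nearest to eca-miR-423-3p (rho = 0.55), eca-miR-199b-5p and eca-miR-214 (rho = 0.53 each), and eca-miR-19b to eca-miR-148a (rho = 0.72), eca-miR-27a (rho = 0.68) and eca-miR-221 (rho = 0.60). These values describe 9 libraries of unequal depth whose RPM share a total, and are given without a test.

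Of 6 further miRNAs that share a seed or a cluster with the 10, 3 had a row. eca-miR-92b, which bears the miR-25 seed, had 55, 45, 24 and 38 counts in EV-recipient synoviocytes, 0, 26, 0, 87 and 72 counts in EV-recipient chondrocytes and 40 counts in the control. This was 126, 234, 744 and 2216 RPM in EV-recipient synoviocytes, against 0, 58.5, 0, 306 and 730.2 RPM in EV-recipient chondrocytes, with the control at 1968 RPM. The groups overlapped, with means of 829.9 ± 962 RPM (SD, n = 4) and 219 ± 312 RPM (SD, n = 5) that did not pass the test (two-sided exact permutation p = 0.190, adjusted p over all 239 miRNAs = 0.893). As for eca-miR-92a, the highest labelled value was that of synoviocyte replicate 4. eca-miR-32 had 4 counts in synoviocyte replicate 2 and eca-miR-363 had 5 counts in synoviocyte replicate 1, with none elsewhere.

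Other miRNAs known for acting on the cell cycle were read from the same fit. Of 24 listed, among them let-7, miR-16, miR-34a and miR-221, 22 had a row and 11 were tested. At an unadjusted p under 0.05, 1 was higher in EV-recipient synoviocytes and 0 were lower, where 8.16% and 10.2% of all tested miRNAs were, and 0 passed after adjustment. The 1 was eca-miR-21, whose log2 fold change was 0.76 with a standard error of 0.26 (edgeR, adjusted p = 0.108). Over the 11 the median log2 fold change was 0.18, beside 0.06 over all 49.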

How the data were processed

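Per the study's methods and the submitters' processing notes, the authors trimmed reads with cutadapt 3.3 to at least 17 nt and mapped them with Bowtie 1.3.0 and miRDeep2 to the horse genome EquCab 3 (2 mismatches) and to horse entries of miRBase (1 mismatch). Raw counts deposited by the authors cover 239 miRNAs, with 8 spike-in rows beside them. RPM in the other deposited table differ by at most 0.0472% from counts divided by the summed miRNA counts of the same column, and were recomputed here from the counts. The only columns used were those of the 10 libraries of the series.

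Counts were tested with edgeR 4.0.16 in R 4.3.3 (quasi-likelihood, TMM factors, library sizes over the 239 miRNAs, group as the only term), with the abundance filter of the study's methods as worded in the report. Standard errors are the log2 fold change over the square root of F. Exact permutation tests of mean RPM used the 126 splits of 9 libraries into 4 and 5, so that the smallest p is 0.00794. DESeq2 1.42.0 and limma 3.58.1 (log2(RPM + 1) and log2(RPM + 10)), other normalizations and filters, a replicate block and leaving out each library were alternatives. Simulated counts were used to test the fitting step. The threshold was 0.05, and Wilson intervals are at 95%. Depth of 4891 to 444408 counts set the precision per library.

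The 10 miRNAs and the lists beside them were chosen with earlier results of these data known. The named miRNAs are the 10, their relatives by seed or cluster, and the 3 with the highest Spearman rho to each tested one. No mature sequences or genome coordinates were used here. Mesenchymal markers (4 of 4 with a row) summed to 24740 to 90892 RPM in EV-recipient synoviocytes and 18312 to 40074 RPM in EV-recipient chondrocytes. Endothelial markers (2 of 2) reached at most 93.0 RPM and epithelial markers (2 of 5) at most 1399 RPM, both in EV-recipient synoviocytes.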

Additional observations from a re-analysis of the deposited data

Results flagged for a closer look

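Each of the 10 miRNAs was searched in each group for a library that lies far from the others (a gap to the nearest library that is large against the range of the group). Chance gives such a library in about 1 in 20 groups of continuous values. Of 20 groups 4 held one, but in 3 of these the other libraries were all at 0, so that the gap equals the range whatever the value, and the number of groups cannot be set against chance. eca-miR-92a was at 29911 RPM in synoviocyte replicate 4, with a gap of 0.851 of the range. The remaining 3 were sparse miRNAs that each had counts in 1 library of the group alone: eca-miR-20a at 61.9 RPM and eca-miR-106b at 29.8 RPM in synoviocyte replicate 1, the deepest of its group, and eca-miR-18a at 73.7 RPM in chondrocyte replicate 4.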

How the results depend on the processing

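No alternative called any of the 10 miRNAs. Over 84 alternative fits of the 4 tested ones the lowest p was 0.242, and over 150 alternative tests of RPM it was 0.0571 (eca-miR-20a without chondrocyte replicate 1). Among the tests of RPM, those with the replicate block rest on 4 pairs of libraries, too few for a p under 0.05 whatever the values. In the shallowest library levels under 613 RPM were not detectable. Calls over all miRNAs, 9 at an unadjusted and 4 at an adjusted p under 0.05, were 0 and 0 with spike-in counts as library size and 16 and 9 without the shallowest library of each group, which was chosen after seeing the data. They were 17 unadjusted with edgeR's own filter, 44 and 14 with no filter, and 7 to 16 and 1 to 6 without single libraries, with 16 unadjusted without synoviocyte replicate 4 and 1 or 2 adjusted without synoviocyte replicate 2 or 3 or chondrocyte replicate 2, 3, 4 or 5. At an adjusted p, limma left 1 with either pseudocount.

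With the replicate block 1 miRNA was called at an adjusted p and the RPM difference of eca-miR-17 was 8.05; the numbers share only a name (correlations of same-numbered libraries of -0.09, 0.11, -0.40 and -0.02, and 1 of 4 synoviocyte libraries nearest to its own number).

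Differences near 0 changed sign, and the cause was not tested. The log2 fold change of eca-miR-25 was -0.033 with spike-ins and -0.070 without the shallowest libraries. That of eca-miR-92a was -0.027 with library size alone, -0.0087 with spike-ins, -0.035 with limma at either pseudocount and -0.029 without the shallowest libraries. Without single libraries it ran from -0.15 to 0.34, and that of eca-miR-19b from -0.42 to 0.059 (0.059 without chondrocyte replicate 1), that of eca-miR-93 from -0.26 to -0.061 and that of eca-miR-25 from 0.058 to 0.31. The difference in RPM without single libraries ran from -55.3 to 8.57 for eca-miR-17, -11.3 to 14.1 for eca-miR-18a, -1222.5 to 1321 for eca-miR-25 and -3938 to 1939.8 for eca-miR-92a, against -24.5, -0.693, 239 and -448 with all. Per 1000 spike-in counts it was 0.0253 for eca-miR-17, 0.000277 for eca-miR-106b, 0.00976 for eca-miR-18a and -0.284 for eca-miR-25. With eca-miR-21 left out of the total it was 6.47 RPM for eca-miR-18a and 3488 RPM for eca-miR-92a. On log2(RPM + 1) and log2(RPM + 10) that of eca-miR-18a was 1.02 and 0.26. Without the shallowest libraries it was 0.305 RPM for eca-miR-18a and -1541 RPM for eca-miR-25. The median log2 fold change of the 49 moved between -0.13 with spike-ins and 0.18 with the replicate block, against 0.06.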
